A study of Solanum lycopersicum with 12 samples.

Results

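Chromosome 0 of the tomato genome annotation collects sequence that has not been placed on any of the 12 chromosomes, and its gene loci carry identifiers that begin with Solyc00g. All loci of the deposited count table whose identifier begins that way were taken, which gave 578 of 34688 loci. They fell into 372 loci whose identifier begins with Solyc00g5 and 206 other Solyc00g loci, and both were set against the loci of the placed chromosomes. Small RNAs of tomato (Solanum lycopersicum) had been sequenced in 12 libraries, 3 per group: cotyledons (seed leaves) excised 6 days after sowing, on day 0, and the callus into which such cotyledons grew on SIM medium, at days 12, 14 and 16. Tissue, SIM medium and time in culture changed together between cotyledon and callus and cannot be told apart. Beyond these, the labels named no cultivar, genotype or treatment that differed between the groups, and gave all cultures the same light and temperature regime. The files gave reads of each length from 18 to 26 nt on each locus.

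In plants, small RNAs of 21 and 22 nt guide the cleavage or translational repression of transcripts and include microRNAs and secondary small interfering RNAs. Those of 24 nt guide DNA methylation and are typical of transposons and repeats. Dicer-like enzymes cut these classes to fixed lengths, whereas breakdown products of longer RNAs are spread over many lengths. Values are counts of small-RNA reads on a locus and say nothing of the level of its mRNA.

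Gene loci held 456744 to 698312 reads per library, out of recovered library totals of 2769024 to 4799134 reads. The sources used here did not give how the authors treated reads with several matching positions, which bears on loci of similar sequence. The files paired no identifier with a gene name or description, so identifiers stand for the loci, no role can be given, and the tissues could not be checked against marker genes. Whether the replicates of a group were separate cultures was not in the labels, and the p-values therefore cover only the spread among these libraries, which may be technical. On the second principal component, 3 callus libraries (day 12 replicate 3, day 14 replicate 1 and day 16 replicate 3) and cotyledon replicate 1 stood apart from the rest of their tissue, at scores of 13.6 to 43.1 against -23.0 to -7.11.

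The chromosome 0 loci held a larger share of the gene reads than of the loci, and that share was lower in callus than in cotyledon. In cotyledon, 14.4%, 13.5% and 14.7% of the gene reads lay on Solyc00g loci. The callus libraries had 7.59%, 10.2% and 6.78% on day 12, 6.14%, 6.31% and 7.20% on day 14, and 7.80%, 9.01% and 6.81% on day 16. Every callus library lay below every cotyledon library, and day 12 replicate 2 was the highest of the callus libraries. Over the 9 callus libraries the share was 7.54% ± 1.33, against 14.2% ± 0.608 in the 3 cotyledon libraries (SD), a ratio of 0.531. In bulk tissue, fewer cells that carry such reads, fewer reads per cell and, for a share, more reads on other loci cannot be told apart. Without the 4 libraries that stood apart the share was 8.03% in 6 callus libraries, against 14.1% in 2 cotyledon libraries, still with no overlap. Relative to the library totals, Solyc00g loci had 0.975% ± 0.201 of the reads in callus and 2.34% ± 0.195 in cotyledon (SD, n = 9 and 3). The size of the share also depended on loci with closely matching counts, whose sets are described below. With 1 locus kept per set, Solyc00g loci held 5.885% ± 0.896 of the remaining gene reads in callus and 10.84% ± 0.433 in cotyledon, with no overlap.

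Nearly all of these reads lay on the Solyc00g5 loci. Summed over the 12 libraries, the 372 Solyc00g5 loci had 550684 reads and the 206 other Solyc00g loci 50970, with a median of 244 reads per Solyc00g5 locus, 38.5 per other Solyc00g locus and 20 per placed locus. The Solyc00g5 share of gene reads was 13.1% ± 0.580 in cotyledon, 7.50% ± 1.71 on day 12, 5.92% ± 0.517 on day 14 and 7.17% ± 1.02 on day 16 (SD, n = 3 each). The share of the other Solyc00g loci was 1.09% ± 0.0381, 0.709% ± 0.0926, 0.625% ± 0.0708 and 0.703% ± 0.0844 at the same times (SD, n = 3 each). Both were lower in every callus library than in every cotyledon library. The Solyc00g5 loci had 10.1 ± 0.768 times the reads of the other Solyc00g loci in callus (8.90 to 11.6) and 12.1 ± 0.379 times in cotyledon (11.7 to 12.5), with no overlap.

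A few loci made up most of the lower share. Solyc00g500063.1 alone accounted for 40.8% of the difference in percentage points between callus and cotyledon, and a set of 4 loci with matching counts, described below, for 21.5%. The choice of these 5 loci was made after their values were seen. Without them, Solyc00g loci held 6.81% ± 1.22 of the remaining gene reads in callus and 9.74% ± 0.474 in cotyledon, and the ranges of 5.61% to 9.25% and 9.24% to 10.2% then touched, through day 12 replicate 2. The other Solyc00g loci, which lose only Solyc00g277510.2 by this, held 0.642% ± 0.0792 in callus and 0.723% ± 0.0117 in cotyledon. Their callus libraries, at 0.522% to 0.768%, then lay on both sides of the cotyledon libraries, at 0.713% to 0.736%. For the Solyc00g5 loci without their 4 members of this group, callus (5.01% to 8.48%) stayed below cotyledon (8.52% to 9.44%).

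**Figure D1:**
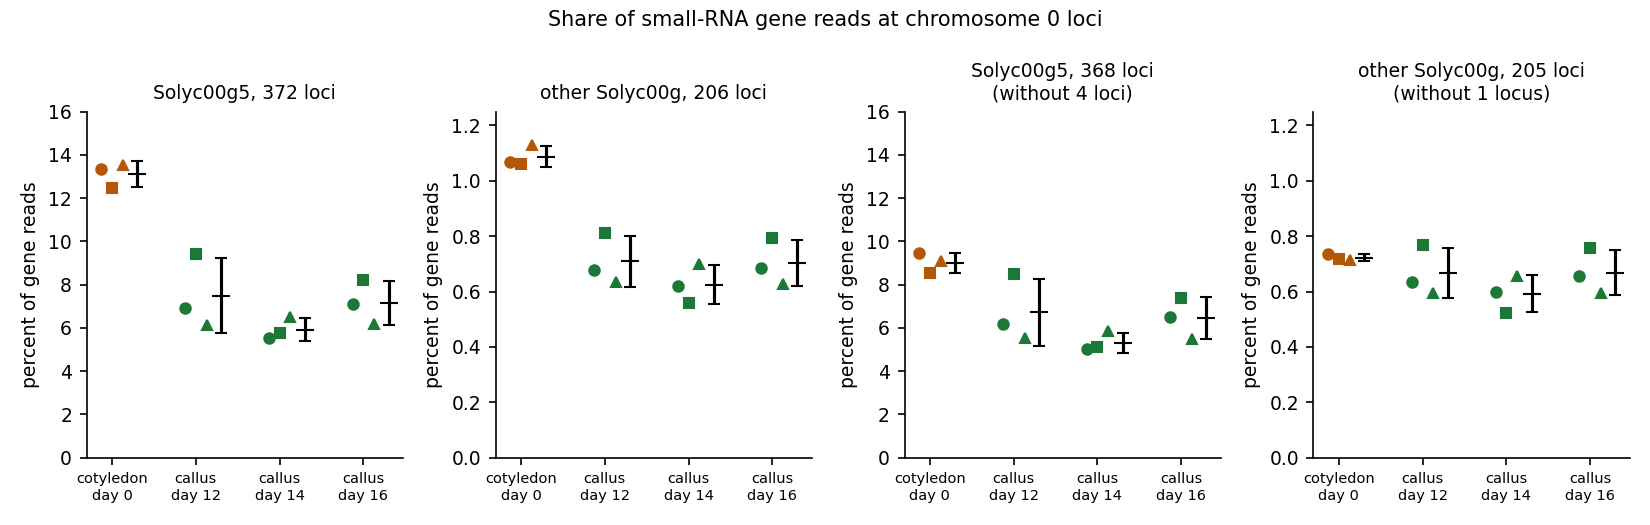
Percent of small-RNA gene reads on Solyc00g5 and on other Solyc00g loci in each library, with all loci (left pair of panels) and without Solyc00g500063.1 and the set of 4 loci with matching counts (right pair). Points are libraries (circle, square and triangle for replicates 1 to 3), and bars are the mean ± SD of 3 libraries; cotyledon lies above callus in both left panels, but not in the rightmost, where callus reaches from 0.522% to 0.768%.

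Reads of the Solyc00g5 loci were spread over more lengths than those of the placed loci, and their 22-nt share was higher in callus. In callus 20.9% ± 1.00 of the Solyc00g5 reads were 22 nt long (19.5% to 21.98%), against 14.6% ± 1.03 in cotyledon (13.4% to 15.4%), with no overlap (SD, n = 9 and 3). The other Solyc00g loci had 16.4% ± 1.46 at 22 nt in callus and 14.8% ± 1.11 in cotyledon, with overlap. The placed loci had 13.6% ± 1.06 in callus (11.8% to 15.3%) and 16.2% ± 1.06 in cotyledon (15.2% to 17.3%), the opposite direction. The higher 22-nt share of the Solyc00g5 loci was not carried by the 4 abundant loci above, since without them it was 20.9% ± 1.03 in callus and 14.4% ± 1.11 in cotyledon. Without the 4 libraries that stood apart it was 20.7% in callus and 15.2% in cotyledon. These are shares of the Solyc00g5 reads, which as a whole were 6.86% of the gene reads in callus and 13.1% in cotyledon. A higher 22-nt share is therefore not a higher number of 22-nt reads.

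The 21- to 24-nt classes together made up 80.6% ± 1.54 of the Solyc00g5 reads in callus and 69.6% ± 1.82 in cotyledon, again with no overlap (78.5% to 82.6% and 68.1% to 71.6%). The placed loci had 88.0% ± 2.13 in callus and 85.8% ± 1.92 in cotyledon. For the Solyc00g5 loci, reads of 18 to 20 nt were 12.2% ± 1.80 of the reads in callus and 17.7% ± 5.63 in cotyledon, and reads of 25 and 26 nt were 7.17% ± 0.680 and 12.7% ± 3.83. Part of this rested on the abundant loci, since without the 4 of them the 21- to 24-nt share was 81.4% ± 1.44 in callus (79.4% to 83.3%) and 76.7% ± 1.39 in cotyledon (75.3% to 78.0%). The other Solyc00g loci had 75.6% ± 2.27 at 21 to 24 nt in callus and 69.9% ± 2.78 in cotyledon, and without Solyc00g277510.2 they had 76.1% ± 2.45 and 77.7% ± 3.49.

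At 24 nt the Solyc00g5 loci had 26.1% ± 1.86 of their reads in callus and 25.9% ± 4.71 in cotyledon. The 3 cotyledon libraries spread from 21.2% to 30.7%, so that a difference in this class was not detectable. Over all Solyc00g loci the 21-nt share was 19.3% ± 1.12 in callus and 16.2% ± 2.51 in cotyledon, which overlapped, with a difference of 3.07 percentage points. The Solyc00g5 and the other Solyc00g loci leaned opposite ways, each with overlap. The Solyc00g5 loci had 18.03% to 21.64% at 21 nt in callus and 13.64% to 18.68% in cotyledon. The other Solyc00g loci had 13.97% to 18.28% in callus and 16.76% to 21% in cotyledon. At the placed loci reads of 21 nt made up far more, 46.9% ± 4.10 in callus and 35.7% ± 5.25 in cotyledon. In the mean, 24-nt reads outnumbered 21-nt reads at the Solyc00g5 loci, by a ratio of 1.34 ± 0.113 in callus and 1.67 ± 0.556 in cotyledon. At the other Solyc00g loci the ratios were 1.84 ± 0.334 and 1.37 ± 0.392. At the placed loci 24-nt reads were fewer in the mean, with ratios of 0.436 ± 0.0777 and 0.723 ± 0.292. Cotyledon replicate 2 went the other way at the other Solyc00g loci, with 20.5% at 24 nt and 21% at 21 nt. Cotyledon replicate 1 did so at the placed loci, with 31.6% and 30.5%.

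**Figure D2:**
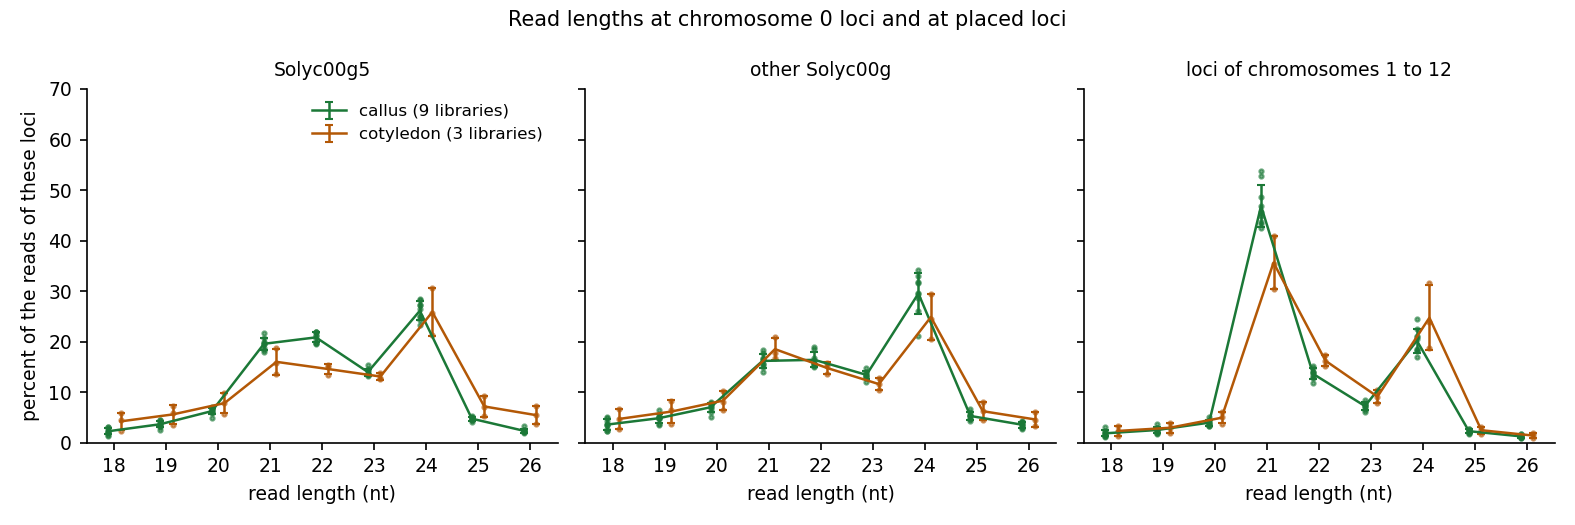
Percent of reads at each length from 18 to 26 nt for Solyc00g5, other Solyc00g and placed loci. Points are libraries, and lines join the means, with SD bars, of 9 callus and 3 cotyledon libraries; the Solyc00g5 panel has its clearest gap at 22 nt, 20.9% in callus and 14.6% in cotyledon, while the placed loci peak at 21 nt.

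Locus by locus, 24 nt was the most frequent main length, meaning the length with the most reads over all libraries, on both kinds of chromosome 0 loci. Among loci with at least 10 reads, it was the main length of 184 of 330 Solyc00g5 loci (55.8%), 83 of 148 other Solyc00g loci (56.1%) and 40.8% of 22504 placed loci. The main length was 21 nt for 27.6%, 24.3% and 26.5% of them, and 22 nt for 12.1%, 10.8% and 13.5%. Solyc00g5 loci rarely had a dominant length: the main length held a median of 27.6% of their reads, against 34.5% at the other Solyc00g loci and 35.7% at the placed loci. It held at least 50% of the reads at 38 Solyc00g5 loci (11.5%), 40 other Solyc00g loci (27.03%) and 29.8% of the placed loci. These medians are not matched for depth, and the Solyc00g5 loci had more reads. With at least 10 reads in each tissue, 168 of 266 Solyc00g5 loci (63.2%) and 52 of 94 other Solyc00g loci (55.3%) had the same main length in callus and cotyledon. Among those that did not, 25 Solyc00g5 loci had 24 nt in callus and 21 nt in cotyledon, and 12 the reverse. The other Solyc00g loci leaned the same way, with 13 and 3, and the placed loci the other way, with 216 and 299. Of 9854 placed loci, 52.1% had the same main length in both tissues. With at least 50 reads in each tissue, 13 Solyc00g5 loci had 24 nt in callus and 21 nt in cotyledon and 8 the reverse. The other Solyc00g loci then had 6 and 2, and the placed loci 31 and 62. The order of the shares turned: 69.2% of 198 Solyc00g5 loci and 77.1% of 2493 placed loci kept their main length.

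Fewer Solyc00g loci rose in callus than the share over all loci, and about as many or more fell. A locus was called when its Benjamini-Hochberg adjusted p was under 0.05 in edgeR's quasi-likelihood test, fitted on all loci. Of 578 Solyc00g loci, 568 had a read and 333 passed the filter on low counts, 253 of them Solyc00g5 and 80 other Solyc00g loci. On day 12, 19 rose and 67 fell (5.71% and 20.1% of those tested), where 14.4% of all 6729 loci rose and 19.2% fell. On day 14, 18 rose and 82 fell (5.41% and 24.6%), against 14.0% and 17.3% of all loci. On day 16, 24 rose and 70 fell (7.21% and 21.02%), against 13.4% and 17.5% of all loci. The groups did not overlap at 145, 165 and 146 of the 333 loci (43.5%, 49.5% and 43.8%), close to the 46.6%, 44.9% and 44.4% of all loci. Of the day 12 calls, 44 were left without callus day 12 replicate 1 and 56 without the 4 libraries that stood apart; in those fits 24.5% and 25.9% of all loci were called. With 1 locus kept per set of closely matching counts (the 13 sets described below), 55, 77 and 59 of 309 loci fell (17.8%, 24.9% and 19.1%) and 19, 15 and 23 rose (6.15%, 4.85% and 7.44%) at days 12, 14 and 16. In the same fits 18.8%, 17.4% and 17.6% of all loci fell and 14.5%, 13.6% and 12.8% rose, so that the day 12 falls were then just under the background.

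With all lengths summed, a larger part of the Solyc00g5 loci than of the other Solyc00g loci was called as fallen. Of the 253 Solyc00g5 loci, 57, 71 and 59 fell at days 12, 14 and 16 (22.5%, 28.1% and 23.3%), and 13, 13 and 17 rose. Of the 80 other Solyc00g loci, 10, 11 and 11 fell (12.5%, 13.8% and 13.8%), and 6, 5 and 7 rose. The median log2 change over the Solyc00g5 loci was -0.20, -0.44 and -0.23, that over the other Solyc00g loci -0.15, -0.03 and 0.09, and that over all loci 0.08, 0.10 and 0.11. The difference between the 2 kinds of loci was not tested, and the matching sets described below mean that Solyc00g5 loci are not independent of each other. Solyc00g5 loci also had more reads, which bears on how many could be called. Among 24-nt reads, 10.9%, 24.5% and 14.3% of 147 Solyc00g5 loci fell at days 12, 14 and 16, against 12.1%, 15.15% and 15.15% of 33 others. Among 21-nt reads, 23.8%, 34.3% and 26.6% of 143 Solyc00g5 loci fell, against 23.8% of 21 others each time. Scaled by library totals instead, the medians were -0.29, -0.80 and -0.58 over the Solyc00g5 loci, -0.26, -0.39 and -0.27 over the other Solyc00g loci and 0.01, -0.24 and -0.24 over all loci. On that scale 12, 12 and 16 Solyc00g loci rose (3.60%, 3.60% and 4.80%) and 74, 136 and 108 fell (22.2%, 40.8% and 32.4%), against 12.3%, 8.41% and 7.71% of all loci that rose and 20.2%, 23.7% and 23.2% that fell.

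Over the 3 callus times together, 60 Solyc00g loci fell at each time and 9 rose at each time, which is 53 and 8 Solyc00g5 loci and 7 and 1 other Solyc00g loci. Of all loci, 13.3% fell and 8.60% rose at each time. By this test no Solyc00g locus was called in opposite directions, and neither was any of all 6729 loci. Of the Solyc00g loci, 213 (64.0%) were called at none of the times, against 56.8% of all loci. The 3 comparisons share their cotyledon libraries, so that they are not independent. The 60 loci that fell held 326952 of the 601654 Solyc00g reads, and 30 of them had 24 nt, 15 had 21 nt and 11 had 22 nt as main length. Lengths other than 21 to 24 nt made up a median of 26.2% of the reads of these 60 loci, 14.6% of the 9 that rose and 23.05% of the 213 not called. At placed loci the same medians were 17.8%, 20.2% and 20.3%. These lengths were pooled over the 12 libraries, so loci that fell draw more of their reads from cotyledon and loci that rose more from callus. The 21- to 24-nt share of the Solyc00g5 reads was itself lower in cotyledon. These medians therefore do not separate the kind of locus from the tissue.

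**Figure D3:**
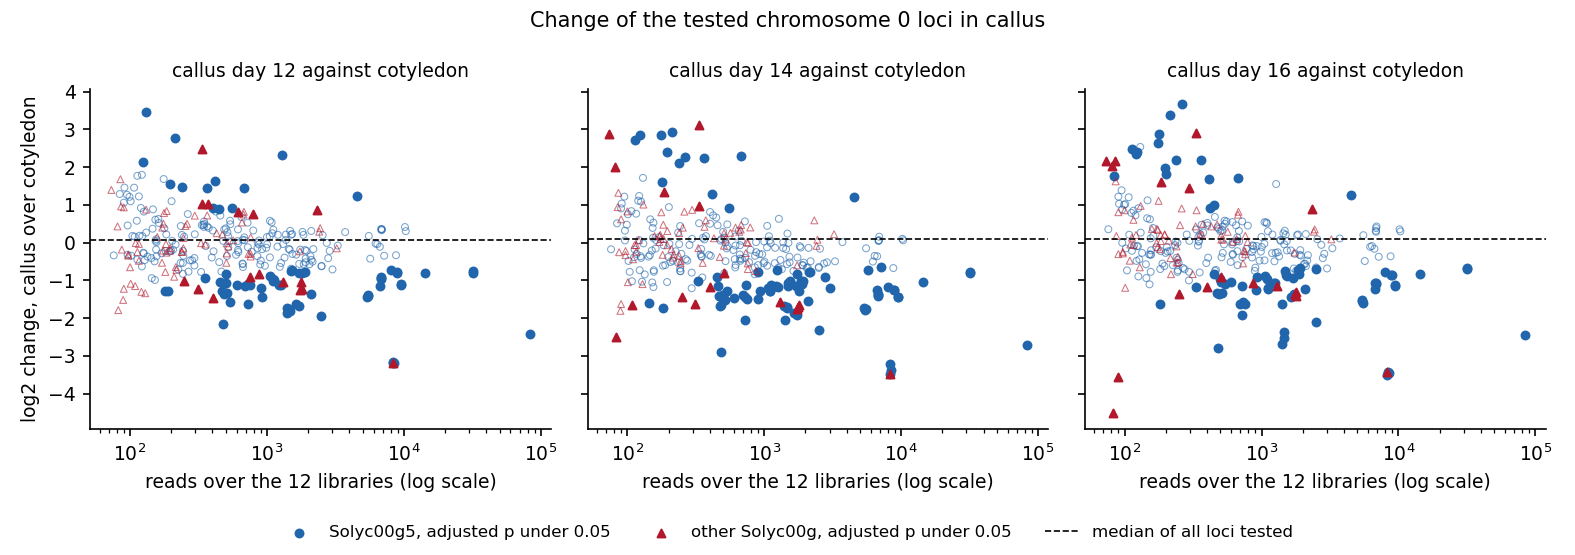
Log2 change of the 333 tested Solyc00g loci in callus at days 12, 14 and 16 against cotyledon, by reads over the 12 libraries (log scale). Filled marks are loci with an adjusted p under 0.05, open marks the rest, and the dashed line is the median of all 6729 loci (0.08, 0.10 and 0.11); the locus at the far right is Solyc00g500063.1, and the group of similar loci low in each panel is the set of 4 loci.

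Tested on their own, 24-nt reads were called as fallen at fewer Solyc00g loci than the background on days 12 and 16 and at more on day 14. Among 24-nt reads, 180 Solyc00g loci were tested, of which 9, 7 and 8 rose and 20, 41 and 26 fell at days 12, 14 and 16 (11.1%, 22.8% and 14.4% fell). Of all loci tested at 24 nt, 14.8%, 15.3% and 15.0% rose and 17.0%, 16.6% and 17.3% fell. On day 12, 17 calls were made without callus day 12 replicate 1 and 19 without its replicate 3. The share of all loci called in those fits is not given here, so these 2 counts have no background. Among 21-nt reads, 164 Solyc00g loci were tested, of which 4, 2 and 2 rose and 39, 54 and 43 fell (23.8%, 32.9% and 26.2% fell). Of all loci tested at 21 nt, 23.2%, 24.6% and 22.2% rose and 21.9%, 22.9% and 21.1% fell. Rises at 21 nt were thus rare on chromosome 0, while falls were at or above the background. Without callus replicate 1, 28 loci were called on day 12, again with no background for that fit.

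For 22-nt reads the authors' deposited table of DESeq2 comparisons gave calls. At 22 nt the authors' deposited table had as risen 7 of 259, 2 of 256 and 3 of 244 Solyc00g loci with an adjusted p at days 12, 14 and 16, where 4.11%, 2.95% and 3.78% of all loci rose. As fallen the authors' deposited table had 9, 11 and 12 of them, where 5.64%, 5.90% and 7.34% of all loci fell. Few chromosome 0 loci were thus called as risen at 22 nt, the length whose share of the Solyc00g5 reads was higher in callus.

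Solyc00g500063.1 had the most reads of the chromosome 0 loci, 83399 over the 12 libraries or 15.1% of the Solyc00g5 reads. It had 17778, 18078 and 16276 reads in cotyledon, 3383, 5696 and 3246 on day 12, 2150, 3840 and 2847 on day 14, and 3118, 3930 and 3057 on day 16. All 9 callus libraries were far below the 3 cotyledon libraries. It held 0.620% ± 0.125 of the gene reads in callus and 3.34% ± 0.197 in cotyledon (SD, n = 9 and 3). The log2 change was -2.42 on day 12 (SE 0.24, edgeR adjusted p = 1.05e-06), -2.72 on day 14 (SE 0.25, edgeR adjusted p = 3.46e-07) and -2.45 on day 16 (SE 0.24, edgeR adjusted p = 8.80e-07). The call held in all 14 alternatives at each time, with log2 changes of -2.21 to -3.07.

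The lengths of Solyc00g500063.1 were flat over all libraries, with 22 nt as the main length at 17.2% of its reads, 24 nt at 16.9% and 21 nt at 16.1%. The ratio of callus to cotyledon differed between lengths. Reads of 26 nt were at 264 CPM (reads per 1000000 gene reads) in callus and 3327 in cotyledon, a ratio of 0.0795, and reads of 18 nt at 183 and 2165, a ratio of 0.0845. Reads of 21 nt were at 1290 and 4388, a ratio of 0.294, and reads of 22 nt at 1314 and 4948, a ratio of 0.266 on the same scale. In callus 75.0% ± 2.85 of its reads were 21 to 24 nt long, against 56.3% ± 1.68 in cotyledon, with no overlap between the tissues.

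The largest falls called with many reads were those of a set of 4 loci, Solyc00g277510.2, Solyc00g500130.1, Solyc00g500200.1 and Solyc00g500329.1, of which Solyc00g500130.1 is named for its matching counts only. Solyc00g500329.1 had 2024, 2145 and 2063 reads in cotyledon, 268, 350 and 236 on day 12, 126, 301 and 211 on day 14, and 199, 224 and 197 on day 16. The other 3 followed it library by library: the 4 loci ranged from 2063 to 2161 reads in cotyledon replicate 3, from 272 to 347 in callus day 14 replicate 2 and from 180 to 199 in callus day 16 replicate 3. Together they held 0.169% ± 0.0332 of the gene reads in callus and 1.60% ± 0.214 in cotyledon (SD, n = 9 and 3). For Solyc00g500329.1 the log2 change was -3.20, -3.46 and -3.41 (SE 0.26 each; edgeR adjusted p = 1.43e-07, 8.00e-08 and 8.04e-08), and for Solyc00g277510.2 it was -3.17, -3.47 and -3.43 (edgeR adjusted p = 2.15e-07, 1.10e-07 and 1.11e-07). Solyc00g277510.2 is an other Solyc00g locus whose counts follow 3 Solyc00g5 loci, and it held 16.3% of the reads of the other Solyc00g loci. Its lengths were as flat as those of Solyc00g500063.1, with 22 nt in front at 16.7% over all libraries.

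The other abundant loci fell less or did not pass the test. Solyc00g500020.1 had 3302, 3747 and 3413 reads in cotyledon, 2159, 3389 and 2215 on day 12, 2034, 2475 and 2283 on day 14, and 2565, 2087 and 2093 on day 16. Its raw reads overlapped between the tissues, but its CPM did not, at 4262 ± 492 in callus and 6713 ± 730 in cotyledon (SD, n = 9 and 3). The log2 change was -0.76, -0.77 and -0.71 (SE 0.23 each; edgeR adjusted p = 0.0150, 0.0152 and 0.0237). Solyc00g500067.1, with the same total of 31762 reads, had -0.80, -0.81 and -0.66 (edgeR adjusted p = 0.0118, 0.0122 and 0.0343). These calls depended on single libraries. For Solyc00g500020.1 they were lost at each time without cotyledon replicate 2 or 3, and also without callus replicate 1 on day 12, replicate 1 or 2 on day 14 and replicate 2 or 3 on day 16 (edgeR adjusted p up to 0.138). Those of Solyc00g500067.1 were lost without the same libraries, except cotyledon replicate 3 and callus replicate 1 on day 14 (edgeR adjusted p up to 0.181). Both day 16 calls were also lost with no filter on low counts, and that of Solyc00g500067.1 without the 4 libraries that stood apart.

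The 24-nt reads of this pair fell, while its 21- and 22-nt reads did not pass a test. Solyc00g500020.1 had 1826, 1542 and 1745 reads of 24 nt in cotyledon, 516, 848 and 607 on day 12, 543, 666 and 666 on day 14, and 539, 529 and 584 on day 16. Every callus library lay far below every cotyledon library. In the test of 24-nt reads alone its log2 change was -1.22, -1.45 and -1.50 at days 12, 14 and 16 (SE 0.21 each; edgeR adjusted p = 0.000620, 0.000201 and 0.000161), and it was called in all 11 alternatives of that test at each time. Solyc00g500067.1 had -1.27, -1.47 and -1.48 (edgeR adjusted p = 0.000470, 0.000188 and 0.000179), again in all 11. At 21 nt Solyc00g500020.1 had 352, 700 and 566 reads in cotyledon, 605, 810 and 538 on day 12, 503, 664 and 588 on day 14, and 804, 572 and 515 on day 16, and the tissues overlapped. Its 21-nt log2 change was 0.01, 0.22 and 0.17, and that of Solyc00g500067.1 -0.0028, 0.16 and 0.23 (edgeR adjusted p from 0.418 to 0.994), with negative values under some alternatives. At 22 nt the authors' deposited table gave log2 changes of 0.37, 0.38 and 0.53 for Solyc00g500020.1 (DESeq2 adjusted p from 0.115 to 0.381). Its 23-nt reads averaged 713 CPM in callus and 1276 CPM in cotyledon. Reads of 24 nt were 25.8% of the reads of Solyc00g500020.1 in callus, beside 26.3% at 21 nt and 25.9% at 22 nt, and 48.9% in cotyledon, beside 15.5% at 21 nt and 11.8% at 22 nt.

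Solyc00g500064.1, whose identifier follows that of the most abundant locus, had 1840, 1626 and 1565 reads in cotyledon, 969, 1661 and 981 on day 12, 679, 1055 and 954 on day 14, and 1047, 1216 and 743 on day 16. Its log2 change was -0.81, -1.05 and -0.82 (SE 0.24 each; edgeR adjusted p = 0.0149, 0.00299 and 0.0144). The day 14 call held in all 14 alternatives; the day 12 call was lost without callus replicate 1 or 3 or cotyledon replicate 3, and the day 16 call without callus replicate 3, and both without the 4 libraries that stood apart (edgeR adjusted p up to 0.109). Its main length was 24 nt at 27.3%, so that the neighbouring identifiers differed in both size of change and lengths. Solyc00g500037.1 and Solyc00g500081.1 did not pass the test, with log2 changes of 0.31, 0.06 and 0.30 and of 0.41, 0.10 and 0.35 (edgeR adjusted p from 0.207 to 0.872). Solyc00g500037.1 had 1635 ± 356 CPM in callus and 1313 ± 107 in cotyledon (SD, n = 9 and 3), and the tissues overlapped. Its day 14 value ran from -0.28 to 0.18 over the alternatives, being negative with library totals.

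The 9 loci that rose at each time had a median of 334 reads over the 12 libraries, and the 213 not called at any time a median of 375. The named rises, taken for the size of their change, had few reads. Solyc00g160160.1, an other Solyc00g locus, had 5, 6 and 2 reads in cotyledon, 16, 52 and 25 on day 12, 26, 46 and 53 on day 14, and 68, 22 and 13 on day 16. Every callus library was above every cotyledon library, and day 16 spread widely, with replicate 1 the highest of all. The log2 change was 2.48, 3.10 and 2.92 (SE 0.65, 0.64 and 0.65; edgeR adjusted p = 0.00692, 0.00132 and 0.00221). Its reads were concentrated at 22 nt, with 69.2% of them, and in the authors' deposited table its 22-nt log2 change was 2.42, 3.14 and 3.13.

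Solyc00g500259.1, with 50.2% of its reads at 24 nt, was among the 2 largest rises by the rule for named loci at each time. It had 1, 3 and 3 reads in cotyledon, 18, 35 and 11 on day 12, 16, 23 and 23 on day 14, and 32, 31 and 17 on day 16, with no overlap. The log2 change was 2.77, 2.94 and 3.37 (SE 0.55, 0.55 and 0.54; edgeR adjusted p = 0.000902, 0.000576 and 0.000133). Both rises held in all 14 alternatives at each time.

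Solyc00g500353.1 differed among the callus times. It had 6, 2 and 4 reads in cotyledon, 7, 15 and 4 on day 12, 31, 21 and 12 on day 14, and 61, 45 and 56 on day 16, so that day 16 lay above all other libraries. Against cotyledon its log2 change was 0.76 on day 12 (edgeR adjusted p = 0.318), 2.26 on day 14 (edgeR adjusted p = 0.00296) and 3.66 on day 16 (SE 0.50, edgeR adjusted p = 2.59e-05). Between callus at days 16 and 12 it was 2.90 (SE 0.45, edgeR adjusted p = 0.0299; 0.000127 in DESeq2). Its reads were spread over lengths, with 24 nt at 21.2%.

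Solyc00g500353.1 was the only Solyc00g locus that edgeR called between callus times. Between days 16 and 12, 1 of the 333 Solyc00g loci was called, against 0.0594% of all loci. An unadjusted edgeR p under 0.05 was found at 12 of the 333 (3.60%), against 8.49% of all loci. DESeq2 called 2 of the 333, and 14 of all 6729 loci. Between days 14 and 12 edgeR called 0 of 333 and 0% of all loci. Its unadjusted p was under 0.05 at 17 of the 333 (5.11%), against 8.95% of all loci. DESeq2 called 0 of the 333, and 17 of all 6729 loci. Between days 16 and 14 edgeR called 0 of 333 and 0% of all loci. Its unadjusted p was under 0.05 at 11 of the 333 (3.30%), against 5.29% of all loci. DESeq2 called 0 of the 333, and 2 of all 6729 loci.

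The falls with the largest log2 change on day 16 rested on few reads. Solyc00g112930.4 had 23, 19 and 10 reads in cotyledon, 0, 10 and 8 on day 12, 1, 8 and 1 on day 14, and 2, 0 and 0 on day 16. With 2 reads on day 16 and 52 in cotyledon, the ratio of callus to cotyledon was 0.0391, with an exact 95% counting interval of 0.00462 to 0.149 (edgeR adjusted p = 0.00457). Its day 14 call (edgeR adjusted p = 0.0356) was lost without cotyledon replicate 1 or 2, callus replicate 1 or 3, or the 4 libraries that stood apart. Its counts matched those of a locus on chromosome 3, Solyc03g150154.1, by the 5% rule given below. Solyc00g171710.3 was mostly of 24 nt, the length of 71.9% of its reads, and had 35, 6 and 9 reads in cotyledon, 6, 3 and 11 on day 12, 7, 6 and 2 on day 14, and 0, 3 and 1 on day 16. It was called on day 16 alone, with a log2 change of -3.57 (SE 0.91, edgeR adjusted p = 0.00593), and cotyledon replicate 1 stood well above the other 2 cotyledon libraries.

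**Figure D4:**
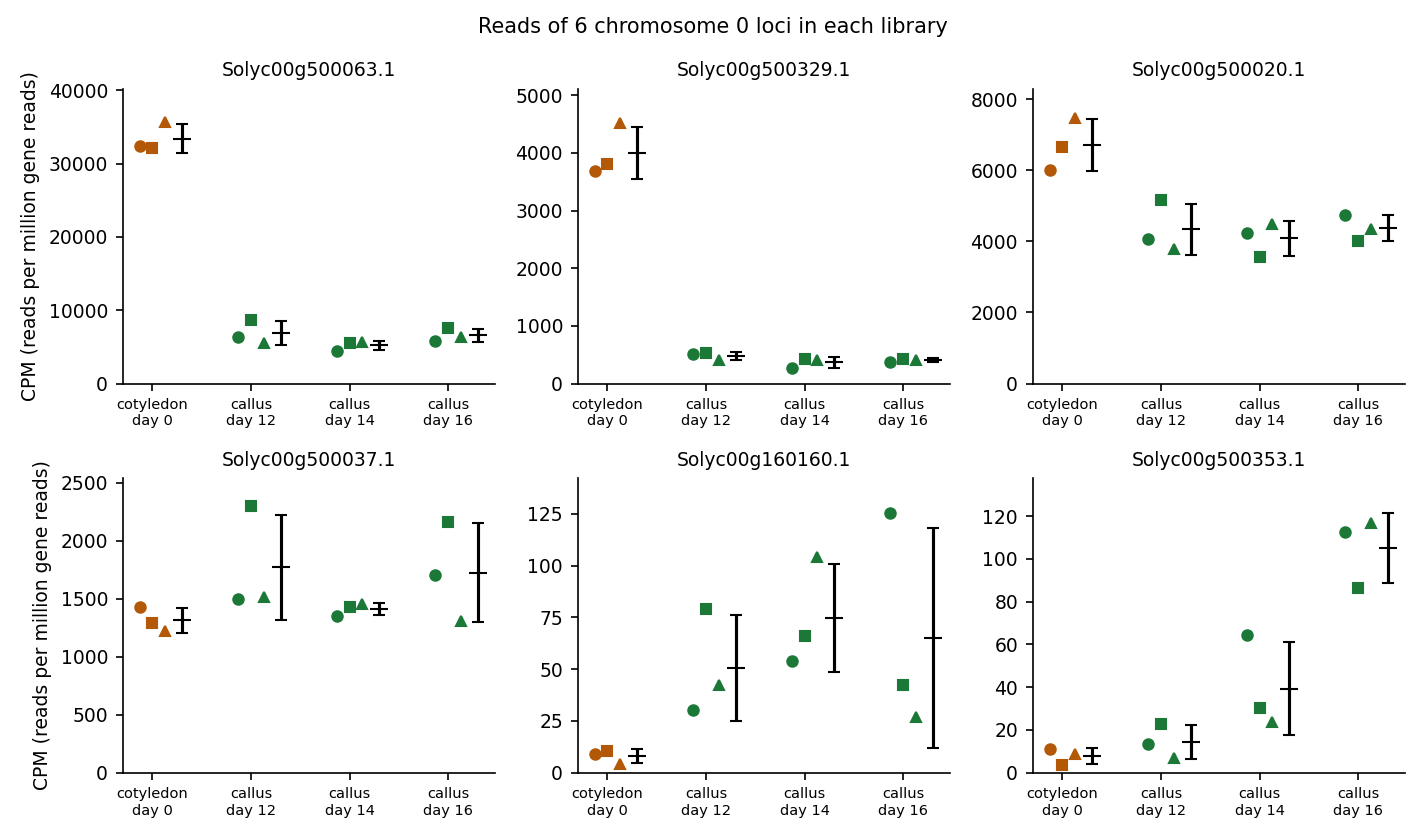
Reads per 1000000 gene reads (CPM) of 6 Solyc00g loci in each library at days 0, 12, 14 and 16. Points are libraries (circle, square and triangle for replicates 1 to 3), and bars are the mean ± SD of 3 libraries; Solyc00g500063.1, Solyc00g500329.1 and Solyc00g500020.1 are lower in callus, Solyc00g500037.1 overlaps, and Solyc00g500353.1 is highest on day 16, with 61, 45 and 56 reads.

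Many chromosome 0 loci had counts that matched those of another locus, which bears on every count of loci above. Matching was searched in 2 ways. The stricter way took loci with at least 20 reads and summed the absolute differences between 2 loci over all lengths and libraries, which had to be at most 5% of their reads. It found 9 sets with a Solyc00g locus, holding 17 of 438 such loci (3.88%), against 90 of 17370 placed loci (0.518%). No Solyc00g locus had counts identical to those of another in every column, and a tolerance of 10% gave 27 sets with 65 Solyc00g loci.

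The other way, chosen after the counts were seen, took the squared difference of the counts of 2 loci over their sum, averaged over lengths and libraries. It is near 1 for reads of 1 source assigned at random to either locus and below 1 where the counts are more alike than that. With at least 2000 reads per locus and a limit of 1.5, it placed 37 of 55 Solyc00g loci (67.3%) in 13 sets, and 37 of 245 placed loci (15.1%). Of pairs of loci with similar totals, 1.48% of 2831 with a Solyc00g locus met the limit, against 0.311% of 6111 between placed loci. The sets held 43.7% to 46.1% of the Solyc00g reads in each library. Members of a set need not all be alike to this degree, since sets were joined through linked pairs. Not every pair within a set had to meet the limit. The totals of 1 set were 8020, 8845 and 8900 reads. Among the linked pairs, all at or below the limit by the rule, the largest value was 1.46.

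Solyc00g500024.1 and Solyc00g500071.1 were the most alike, with a value of 0.0608. Solyc00g500024.1 had 1377, 1284 and 1176 reads in cotyledon, 546, 1018 and 643 on day 12, 430, 608 and 515 on day 14, and 617, 753 and 481 on day 16. Solyc00g500071.1 had 1376, 1292 and 1174 reads in cotyledon, 547, 1026 and 660 on day 12, 434, 604 and 517 on day 14, and 629, 737 and 478 on day 16. Their differences were smaller than the value of 1 for random assignment. Both fell, with log2 changes of -1.12, -1.45 and -1.13 and of -1.11, -1.45 and -1.14 at days 12, 14 and 16 (edgeR adjusted p from 0.000192 to 0.00174). Solyc00g500020.1 and Solyc00g500067.1 had a value of 0.617. Solyc00g500057.1 and Solyc00g500209.1 had totals of 8900 and 8845 reads and fell alike, by -0.81, -1.26 and -0.86 and by -0.77, -1.25 and -0.85 on the log2 scale (edgeR adjusted p from 0.00110 to 0.0268). The day 12 calls of this pair were lost without cotyledon replicate 1 or 2 or callus replicate 1 or 3, and for Solyc00g500209.1 also without cotyledon replicate 3 or with no filter on low counts. The day 16 calls were lost without cotyledon replicate 2 or callus replicate 3, and the calls on both days without the 4 libraries that stood apart (edgeR adjusted p up to 0.170).

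The matching loci recurred at regular steps of their identifier numbers. In 7 sets a pair of Solyc00g5 loci was 70 numbers apart, in 4 sets 82, in 4 sets 152, in 3 sets 129 and in 3 sets 199. The order was kept: the loci numbered 500128, 500130, 500131, 500135, 500136, 500138 and 500139 matched those numbered 500198, 500200, 500201, 500205, 500206, 500208 and 500209. Of the 13 sets, 3 also held a locus of a placed chromosome, namely Solyc09g061465.1, Solyc11g006675.1 and Solyc07g061750.4. Identifier numbers are not positions, and no genome sequence was used here, so that whether these loci are copies of each other was not tested.

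**Figure D5:**
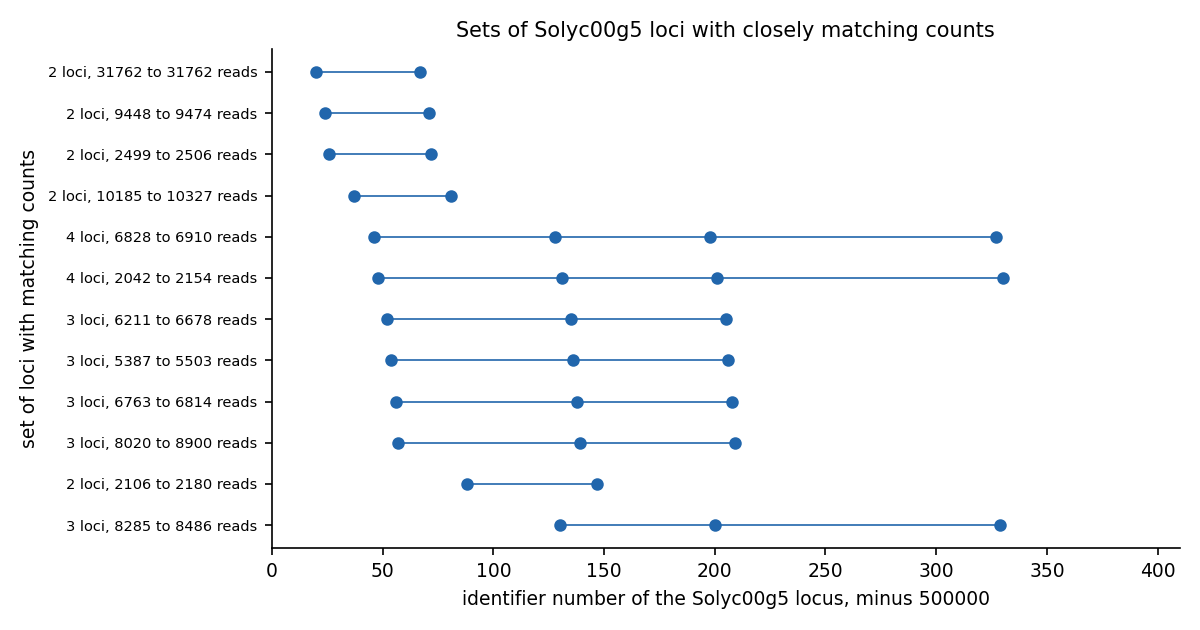
Identifier numbers of the Solyc00g5 loci in each set joined through pairs with a value of at most 1.5, for the 12 sets with at least 2 such loci. Each row is a set, labelled with its number of Solyc00g5 loci and their lowest and highest reads over the 12 libraries; the same spacings, such as 70 between neighbours near 130 and 200, recur from row to row.

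By identifier number, the reads were concentrated among the lowest Solyc00g5 numbers. The 92 loci from 500001 to 500099 held 59.2% of the Solyc00g5 reads, the 92 from 500101 to 500200 held 19.1%, the 87 from 500201 to 500300 held 12.6% and the 93 from 500301 to 500400 held 9.003%. All of these blocks had a lower share of gene reads in each callus library than in each cotyledon library. The block from 500001 had 3.96% ± 0.712 in callus and 8.11% ± 0.358 in cotyledon, a ratio of 0.489, and the block from 500101 had 1.30% ± 0.266 and 2.53% ± 0.127, a ratio of 0.513. The block from 500201 had 0.947% ± 0.181 in callus and 1.39% ± 0.0709 in cotyledon, a ratio of 0.683, and the block from 500301 had 0.648% ± 0.101 and 1.09% ± 0.0470, a ratio of 0.596. The block from 500001 includes Solyc00g500063.1, which alone held 0.620% of the gene reads in callus and 3.34% in cotyledon. The block from 500101 includes Solyc00g500130.1 and Solyc00g500200.1, and that from 500301 Solyc00g500329.1, all of the set of 4 loci. Block ratios without these loci were not computed, so their order is not separate from these few loci. The 8 loci above 500400 held 0.0964% of the Solyc00g5 reads and lay higher in callus, at 0.00960% ± 0.00346 of the gene reads, than in cotyledon, at 0.00357% ± 0.000411. Only 1 of these 8 passed the filter, and it rose at all 3 times.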

How the data were processed

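Small RNAs were sequenced from cotyledon and callus in 12 libraries. The submitters' processing notes list fastp, Bowtie and DESeq2, without versions. The sources used here gave neither the genome build nor the treatment of reads with several matching positions. The authors deposited raw counts per locus, read length and library, TPM values per length class, and DESeq2 log2 fold changes with p-values. Multiplied by 1 constant per library (its gene reads over its summed TPM), all 216 deposited TPM values were whole reads within 0.05 reads, which gave the library totals.

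Counts of 18 to 26 nt were summed per locus, and scaled to CPM (reads per 1000000 gene reads). The main test was edgeR 4.0.16 (quasi-likelihood F test, TMM, filterByExpr, Benjamini-Hochberg at 0.05, R 4.3.3) on all loci, 12 libraries and 4 groups, checked on simulated data. Counts of 21 and of 24 nt were also tested alone. The common biological coefficient of variation was 0.333. SE is the log2 change over the square root of F. Sums over loci get no p. DESeq2 1.42.0, other scalings, no filter and left-out libraries were alternatives. Replicates differed by more than counting noise, with chi-square values per degree of freedom of 3.61 to 12.4. Counting intervals cover counting error only.

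The members and rules were chosen with earlier results of these data known. Named loci are the 6 with the largest mean share of gene reads, per comparison the 2 largest rises and 2 largest falls among called, non-overlapping loci averaging 10 CPM or more in the groups compared, and the lowest identifiers of the 3 matching sets with most reads. Left-out libraries that stood apart, sets by the squared difference of counts and the removal of 5 loci were chosen after seeing the data. Of the identifiers, 0 matched the gene table of the reference, and no unused sample columns were present (0).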

Additional observations from a re-analysis of the deposited data

How the results depend on the processing

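Of the main values under an alternative, 130 kept their side, 16 moved and 0 reversed, and no named locus changed sign while called. Other directions turned: the 21- to 24-nt share of the other Solyc00g loci was higher in callus with all loci (75.6%, against 69.9% in cotyledon) and lower without Solyc00g277510.2 (76.1%, against 77.7%), and their median log2 change on day 16 was 0.09, and -0.27 with library totals. The ratio of the callus to the cotyledon share was 0.531, and 0.416 with library totals, 0.620 without the most abundant locus, 0.699 without it and the 4-locus set, and 0.508 to 0.544 with 1 library left out. Leaving out 1 library gave 44 to 76, 79 to 87 and 68 to 79 called loci at days 12, 14 and 16. At 24 nt it gave 17 to 29, 34 to 45 and 26 to 31 called loci. At 21 nt it gave 28 to 39, 38 to 51 and 34 to 40. The difference in the 21-nt share over all Solyc00g loci was then 1.90 to 4.39 percentage points. At day 12, 56 loci were called without the 4 libraries that stood apart. With library totals 61 loci were called at 24 nt at day 12 and 61 at day 16. Without a filter on low counts, 16 were called at 24 nt at day 12, and 15, 26 and 17 at 21 nt. Matching sets numbered 0 with identical counts and 27 at 10%. With the replicate number as a block, 83, 93 and 88 loci were called. Apart from the 44 and 56 calls on day 12, these counts have no share of all loci from the same fit beside them. They therefore do not tell a change at chromosome 0 loci from a change at all loci. Same-numbered callus and cotyledon libraries correlated at -0.152 to 0.184 in their deviations, and the same number was the best match for callus day 14 replicates 1 and 2. No clear pairing by number was seen, but callus times were not compared with each other, so that pairing is not excluded. The block ended 1 named call (Solyc00g500067.1 at day 16, edgeR adjusted p = 0.0526). The cause of these differences was not tested. Of 723 results on named loci under an alternative, 53 lost their call and 2 gained one. Depth limits the loci that failed the filter on low counts, which have no test, and copies made by PCR cannot be told from separate molecules.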
